A study of Homo sapiens with 9 samples.

Results

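The polypyrimidine tract-binding proteins PTBP1, PTBP2 and PTBP3 are 3 paralogous RNA-binding proteins, and their transcripts were followed here probe set by probe set. Probe sets were taken if the platform annotation gave exactly 1 gene symbol and that symbol was PTBP1, PTBP2 or PTBP3, including ROD1, the older name of PTBP3. This gave 76 probe sets of 1384231 on the array, 29 for PTBP1, 19 for PTBP2 and 28 for PTBP3. The genes were chosen with earlier results of these arrays known, in particular that PTBP2 is higher on the arrays labelled CPSF3 knockdown. Differences of the 3 genes are therefore given as descriptions, with standard errors and without tests.

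PTBP proteins bind pyrimidine-rich stretches of pre-mRNA and mostly repress the exons next to them. PTBP1 is the form of most dividing cells, PTBP2 is the neural form, and PTBP3 is best known from blood cells. The genes are tied together by splicing: PTBP1 promotes skipping of an exon in the PTBP2 and in its own transcript, and transcripts without that exon are removed by nonsense-mediated decay, so that PTBP2 is low where PTBP1 is high.

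The samples were Flip-In-293 cells, which descend from HEK293, a line made from human embryonic kidney, and carry an integrated site for targeted insertion. They had been infected with lentivirus that expressed a short hairpin RNA and were grown for 10 days before total RNA was isolated. The hairpin was directed against CPSF3, the endonuclease that cuts pre-mRNA ahead of polyadenylation, or against RBFOX2, a splicing regulator, or was a non-silencing hairpin (control). Each of the 3 groups had 3 arrays. All groups carry a lentivirus. The titles call the replicates biological and the series description calls them technical, so the spread between arrays may be technical. The arrays were Affymetrix Human Exon 1.0 ST arrays, on which separate probe sets read most exons of a gene.

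The signal is given on a log2 scale, so a difference of 1 is a doubling. The level of a gene is the median over its probe sets with a mean of at least 6.97 over the 9 arrays, the median of all probe sets. Of the 76 probe sets 70 met this, all 29 of PTBP1, 15 of PTBP2 and 26 of PTBP3. The exon signal is a probe set minus the level of its gene on the same array. Errors of levels are SD over 3 arrays, and errors of differences are SE from a limma fit over all 9 arrays.

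Array medians lay within 0.0332 of each other. RBFOX2 was at 8.95, 8.82 and 9.05 on the RBFOX2 knockdown arrays, against 9.66, 9.54 and 9.38 on the control arrays, a difference of -0.58 ± 0.12 (adjusted p = 0.0617 over all genes, limma). CPSF3 was at 9.60, 9.27 and 9.27 on the arrays labelled CPSF3 knockdown, against 9.33, 9.29 and 9.80 on the control arrays, a difference of -0.09 ± 0.16 (adjusted p = 0.752, limma). Against the RBFOX2 knockdown arrays CPSF3 was lower, at -0.34 ± 0.16, but was not called (adjusted p = 0.373, limma). The targeted transcript thus does not bear out the CPSF3 label, and every direction given for these arrays rests on the label. Control replicate 3 stood apart from its group. Its root mean square difference in gene level was 0.312 from the arrays labelled CPSF3 knockdown and 0.233 from the RBFOX2 knockdown group, against 0.316 from the other control arrays. Control replicates 1 and 2 were nearest to their own group, at 0.265 and 0.294. Some results that involve the controls are therefore also given without control replicate 3. The others, among them those of the targets and of named list genes, are given with all arrays and may be moved by it. For CPSF3, control replicates 1 and 2, at 9.33 and 9.29, lay within the range of the arrays labelled CPSF3 knockdown.

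PTBP2 stood out among the 3 genes. Its level was 11.06, 11.14 and 11.26 on the arrays labelled CPSF3 knockdown, 9.66, 9.67 and 10.04 with the RBFOX2 hairpin, and 10.15, 10.10 and 9.92 on the control arrays. The 3 arrays labelled CPSF3 knockdown lay above all 6 others, with no overlap, while the RBFOX2 knockdown and control arrays overlapped. That overlap came from control replicate 3 alone, since the RBFOX2 knockdown arrays all lay below control replicates 1 and 2. The difference from control was 1.10 ± 0.13 in the arrays labelled CPSF3 knockdown, a 2.14-fold higher level. The 95% interval ran from 0.82 to 1.38 on the log2 scale. For the RBFOX2 hairpin it was -0.27 ± 0.13 (95% interval -0.54 to 0.01). With single arrays left out, the RBFOX2 hairpin difference ran from -0.39 to -0.20. Against each other, the arrays labelled CPSF3 knockdown were 1.37 ± 0.13 above the RBFOX2 knockdown arrays, or 2.58-fold. Among 16748 genes with a level it ranked 73 from the highest difference in the first of these comparisons and 2 in the last. Over all genes 17.9% lay wholly above and 13.2% wholly below control in the arrays labelled CPSF3 knockdown, 7.07% and 7.05% in the RBFOX2 knockdown arrays, and 10.9% and 9.41% lay wholly above and below between the targeted groups; the gene was chosen from these contrasts, so nothing is read from its own place. Both comparisons with control use the same 3 control arrays. Without control replicate 3 the difference of the arrays labelled CPSF3 knockdown from control was 1.03. In RNA from whole cultures, more cells with the transcript and more transcript per cell cannot be told apart.

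PTBP1, the form that represses PTBP2, had no such difference. Its level was 11.64, 11.27 and 11.25 on the arrays labelled CPSF3 knockdown, 11.77, 11.62 and 11.60 with the RBFOX2 hairpin, and 11.50, 11.41 and 11.62 on the control arrays. All 3 groups overlapped, and replicate 1 of the arrays labelled CPSF3 knockdown lay within the range of the RBFOX2 knockdown arrays. The difference from control was -0.12 ± 0.13 in the arrays labelled CPSF3 knockdown (95% interval -0.39 to 0.15) and 0.15 ± 0.13 in the RBFOX2 knockdown arrays (95% interval -0.12 to 0.43). Without CPSF3 replicate 1 the first of these was -0.25, and without CPSF3 replicate 3 it was -0.05. On the fold scale the interval with all arrays for the arrays labelled CPSF3 knockdown ran from 0.761 to 1.11 times the control level. Between the targeted groups, the arrays labelled CPSF3 knockdown stood at -0.27 ± 0.13 relative to the RBFOX2 knockdown arrays, with a 95% interval from -0.55 to 0.00.

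PTBP3 varied least between groups. It was at 9.95, 9.82 and 9.93 on the arrays labelled CPSF3 knockdown, 9.79, 9.80 and 10.01 with the RBFOX2 hairpin, and 10.09, 9.96 and 9.81 on the control arrays. The groups overlapped throughout. Its differences from control were -0.05 ± 0.12 in the arrays labelled CPSF3 knockdown and -0.08 ± 0.12 in the RBFOX2 knockdown arrays. The 95% intervals, -0.30 to 0.19 and -0.33 to 0.17, give the changes that 3 arrays a group leave possible.

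**Figure D1:**
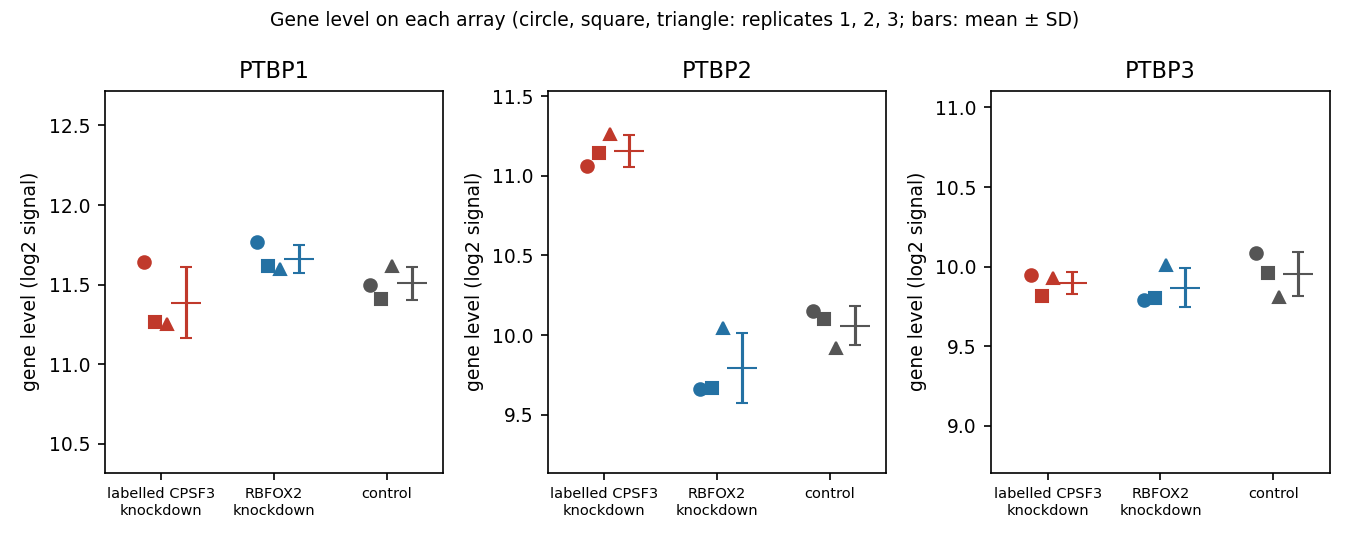
Level of each gene (log2 signal, vertical axis) on the 9 arrays, by group, with points for arrays and bars for mean ± SD (n = 3); each panel spans the same number of log2 units. The PTBP2 points of the arrays labelled CPSF3 knockdown lie between 11.06 and 11.26, above all others, whereas the PTBP1 and PTBP3 points of the groups overlap.

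The higher PTBP2 level was read by nearly all of its probe sets. Of its 15 probe sets in use, 14 had all 3 arrays labelled CPSF3 knockdown above all 3 control arrays, and 0 had them all below. Over all 266506 probe sets with 1 gene and enough signal, 16.9% lay wholly above and 10.8% wholly below control in this comparison; since the gene was chosen from it, nothing is read from the PTBP2 count. None of the 15 probe sets owed its place to the arrays labelled CPSF3 knockdown, since the lowest mean on the control arrays was 8.50. With the 4 weak probe sets added, 17 of 19 lay wholly above control. Without control replicate 3 the counts were 14 above and 1 below, where 27.4% and 16.1% of all probe sets were, and with the RBFOX2 hairpin 0 above and 4 below, where 20.6% and 11.5% were. In 9 of the 15 the difference was at least 1, and over the 15 it ran from -0.23 to 1.75 with a median of 1.05. With the RBFOX2 hairpin 2 of 15 lay wholly below control and 0 wholly above, where 6.18% and 6.36% of all probe sets did, and 13 of the 15 had a lower mean. Against the RBFOX2 knockdown arrays, 14 of 15 had all arrays labelled CPSF3 knockdown above (9.11% of all probe sets) and 15 had a higher mean.

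The largest difference was that of probe set 2348097. It read 11.03, 10.44 and 11.00 on the arrays labelled CPSF3 knockdown, 9.17, 9.22 and 9.91 with the RBFOX2 hairpin, and 9.38, 8.90 and 8.94 on the control arrays. This puts it at 1.75 above control in the arrays labelled CPSF3 knockdown and 0.36 above in the RBFOX2 knockdown arrays. It and its neighbour by number, 2348096, were the 2 of 15 with a higher mean in the RBFOX2 knockdown than in the control arrays. Probe set 2348096 differed from control by 1.29 in the arrays labelled CPSF3 knockdown and by 0.19 in the RBFOX2 knockdown arrays. Relative to the gene, the exon signal of 2348097 was -0.33 ± 0.34 in the arrays labelled CPSF3 knockdown, -0.36 ± 0.19 in the RBFOX2 knockdown arrays and -0.98 ± 0.22 in the control arrays. It was thus higher by 0.65 ± 0.19 and 0.63 ± 0.19 than in control, by nearly the same amount in both targeted groups. Both shifts use the same controls. Next in size among the whole-signal differences came 2348074, at 1.23.

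At the other end, probe set 2348076 did not follow the gene. It read 8.48, 8.12 and 8.18 on the arrays labelled CPSF3 knockdown, 8.10, 7.96 and 8.23 with the RBFOX2 hairpin, and 8.83, 8.48 and 8.17 on the control arrays. The groups overlapped, and the difference of the arrays labelled CPSF3 knockdown from control was -0.23 where the gene was at 1.10. Its exon signal was -2.90 ± 0.28 there, -1.70 ± 0.12 in the RBFOX2 knockdown arrays and -1.56 ± 0.22 in the control arrays, a difference from control of -1.33 ± 0.17 and of -0.13 ± 0.17 in the 2 targeted groups. This was the widest exon shift of all 70 probe sets of the 3 genes in either comparison with control. With a mean of 8.28 it was also the weakest of the 15 in use. The 2 probe sets with the lowest numbers also trailed the gene. Probe set 2348061 read 10.36, 10.40 and 10.25 on the arrays labelled CPSF3 knockdown, against 10.02, 10.02 and 9.92 on the control arrays, and 2348062 read 11.80, 11.65 and 11.55 against 11.15, 11.01 and 10.90. They were higher by 0.35 and 0.64, without overlap. Positions of probe sets within the gene were not used here, so none is matched to an exon of the transcript.

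**Figure D2:**
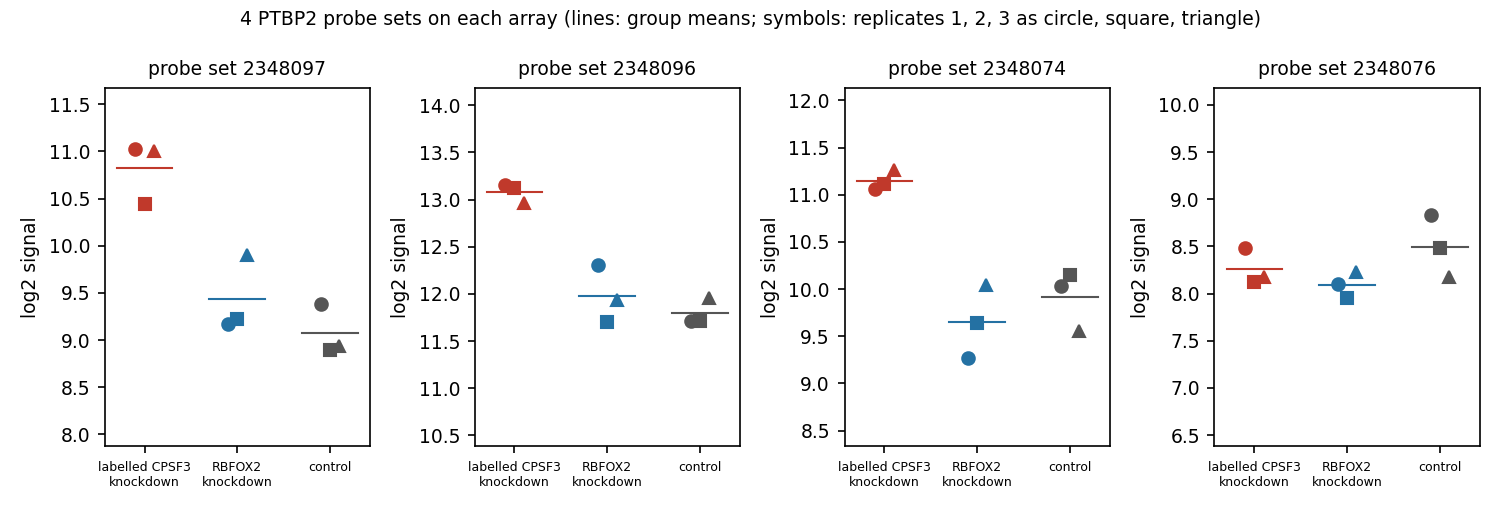
Log2 signal (vertical axis) of 4 PTBP2 probe sets on the 9 arrays by group, with a point for each array and a line for the group mean. Probe sets 2348097, 2348096 and 2348074 are higher in the arrays labelled CPSF3 knockdown by 1.75, 1.29 and 1.23, while the groups of 2348076 overlap.

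Of the 4 PTBP2 probe sets below the filter, 3 gave differences of the size of the gene. Probe sets 2348073, 2348101 and 2348103 were at 1.28, 1.09 and 0.95 in the arrays labelled CPSF3 knockdown against control, each without overlap. Probe set 2348104, with a mean of 4.78 the weakest of the gene, was at 0.43 with overlap. The SD of the differences over the 15 probe sets was 0.45. The median of that SD over 15035 genes with at least 5 probe sets in use was 0.22. Against the RBFOX2 knockdown arrays the PTBP2 value was 0.36 and the median over genes 0.16. Since the gene was chosen from these values, nothing is read from their standing among genes.

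PTBP1 was uneven in another way. Of its 29 probe sets 24 differed from control by between -0.31 and 0.20 in the arrays labelled CPSF3 knockdown, and 5 lay far lower. These were chosen after their values were seen, as those with a difference below -0.5: 3815182, 3815184, 3815185, 3815186 and 3815187, at -0.69, -0.95, -1.04, -0.76 and -0.78. Their numbers follow each other apart from 3815183, which was at 0.00. With the RBFOX2 hairpin the same 5 were at -0.50, -0.91, -0.81, -0.69 and -0.63, also the 5 lowest of the gene. These values subtract the same control arrays from which the 5 were chosen. High control values alone could place the 5 low in both comparisons, so the RBFOX2 hairpin values are no independent check.

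The arrays split by more than the group here. Probe set 3815185 read 10.78, 10.30 and 10.50 on the arrays labelled CPSF3 knockdown, 10.40, 11.19 and 10.67 with the RBFOX2 hairpin, and 11.96, 11.73 and 11.01 on the control arrays. Control replicates 1 and 2 were the highest, and control replicate 3 lay within the range of the RBFOX2 knockdown arrays. Averaged over the 5, the signal was 9.82, 9.55 and 9.76 on the arrays labelled CPSF3 knockdown, 9.43, 10.21 and 9.90 with the RBFOX2 hairpin, and 10.83, 10.83 and 9.99 on the control arrays. The mean of the other 24 probe sets lay between 11.27 and 11.74 on all 9 arrays. Taken relative to those 24, the 5 were at -1.67 ± 0.14 in the arrays labelled CPSF3 knockdown, -1.79 ± 0.49 in the RBFOX2 knockdown arrays and -0.90 ± 0.58 in the control arrays (SD, n = 3 each). Within the controls they were at -0.60 and -0.53 in replicates 1 and 2 and at -1.57 in replicate 3. Without control replicate 3 the differences from control were -1.11 in the arrays labelled CPSF3 knockdown and -1.23 in the RBFOX2 knockdown arrays. With it they were -0.77 and -0.89. All of these use control arrays that entered the choice of the 5, so none is an independent check. The control array that stood apart over all genes thus moved with the targeted groups at these probe sets, and both differences were wider without it. Why that array differed was not tested.

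**Figure D3:**
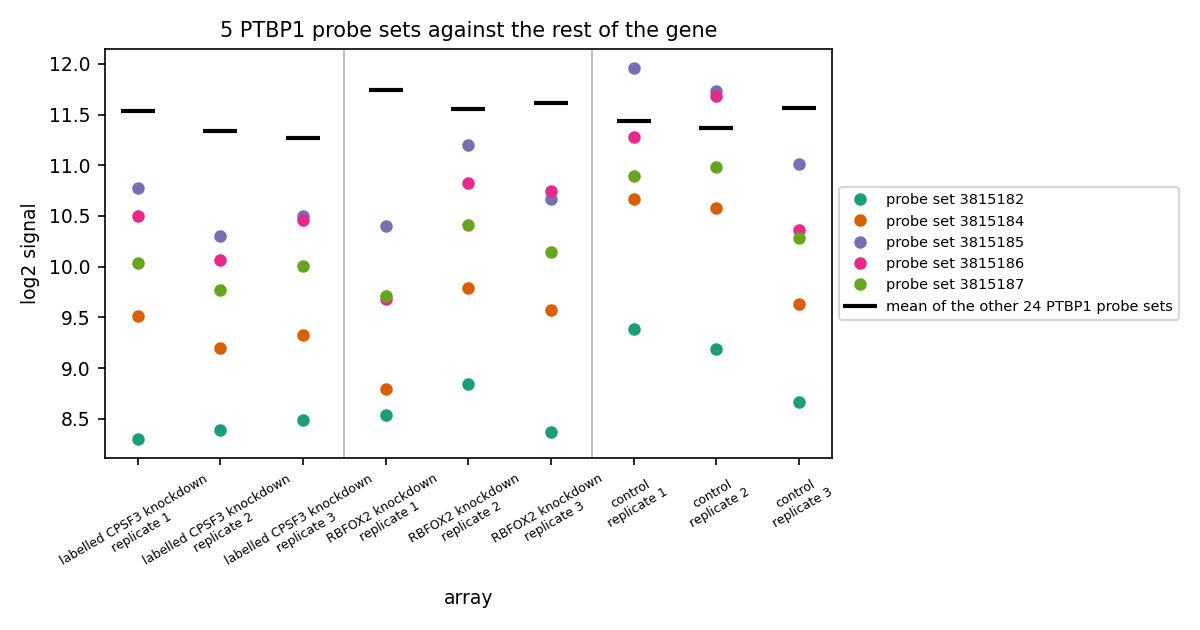
Log2 signal (vertical axis) of 5 PTBP1 probe sets on each of the 9 arrays (horizontal axis), with a dash for the mean of the other 24 PTBP1 probe sets. Control replicates 1 and 2 read highest at the 5 probe sets and control replicate 3 falls among the targeted arrays, while the dashes stay between 11.27 and 11.74.

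Between the targeted groups the unevenness of PTBP1 was gone. All 29 probe sets had a lower mean in the arrays labelled CPSF3 knockdown than in the RBFOX2 knockdown arrays, from -0.46 to -0.04, and 6 of them had no overlap (6.78% of all probe sets lay wholly below). The SD of the differences over probe sets was 0.11, whereas against control it was 0.34 in the arrays labelled CPSF3 knockdown and 0.36 with the RBFOX2 hairpin. Over 15035 genes the median of that SD was 0.16, 0.22 and 0.19 in the same order. Against control, 7 probe sets lay wholly below in the arrays labelled CPSF3 knockdown and 0 above, where 10.8% and 16.9% of all probe sets did. Of the 7, 4 belong to the low 5, and the others were 3815195, 3815198 and 3815202, at -0.22, -0.31 and -0.29. In the RBFOX2 knockdown arrays 22 of 29 probe sets had a higher mean than in control, with 3815172 (0.35) and 3815174 (0.31) wholly above and 0 wholly below (6.36% and 6.18% of all probe sets). Without control replicate 3, 5 PTBP1 probe sets lay wholly above and 9 wholly below control in the arrays labelled CPSF3 knockdown (27.4% and 16.1% of all probe sets), and 13 and 6 in the RBFOX2 knockdown arrays (20.6% and 11.5%).

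The 26 PTBP3 probe sets in use had a median difference from control of 0.06 in the arrays labelled CPSF3 knockdown. Of them 4 lay wholly above control and 3 wholly below, where 16.9% and 10.8% of all probe sets did, so the counts are near the background. The highest were 3220979 and 3220980. Probe set 3220979 read 8.57, 8.33 and 8.36 on the arrays labelled CPSF3 knockdown, 7.81, 8.18 and 8.16 with the RBFOX2 hairpin, and 8.06, 8.04 and 7.95 on the control arrays, a difference from control of 0.40 and 0.04 in the 2 targeted groups. Probe set 3220980 was at 0.36 and 0.13, and the other two, 3220984 and 3220996, were at 0.22 and 0.11 in the arrays labelled CPSF3 knockdown. The 3 below were the 3 with the highest numbers, 3221030, 3221031 and 3221032, at -0.54, -0.16 and -0.26. Of these, 3221030 read 7.56, 7.70 and 7.61 on the arrays labelled CPSF3 knockdown, 7.70, 7.66 and 8.22 with the RBFOX2 hairpin, and 8.33, 8.12 and 8.04 on the control arrays. With the RBFOX2 hairpin these 3 were at -0.31, -0.14 and -0.31, and of the 26 probe sets 1 (3220980) lay wholly above and 1 (3221031) wholly below control, where 6.36% and 6.18% of all probe sets did. Without control replicate 3 the counts against control were 6 above and 6 below in the arrays labelled CPSF3 knockdown, 23.1% each, where 27.4% and 16.1% of all probe sets lay wholly above and below.

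A weak PTBP3 probe set had the largest difference of all 76. Probe set 3221027 read 6.96, 7.91 and 8.05 on the arrays labelled CPSF3 knockdown, 4.17, 5.27 and 6.57 with the RBFOX2 hairpin, and 5.52, 5.62 and 5.29 on the control arrays. It was higher by 2.16 in the arrays labelled CPSF3 knockdown and at -0.14 in the RBFOX2 knockdown arrays. The 3 arrays labelled CPSF3 knockdown lay above all 6 others. Its mean of 6.15 is below the filter, so it enters neither the level of PTBP3 nor the exon signals. Its neighbour 3221029, at a mean of 4.16, differed by -0.09.

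**Figure D4:**
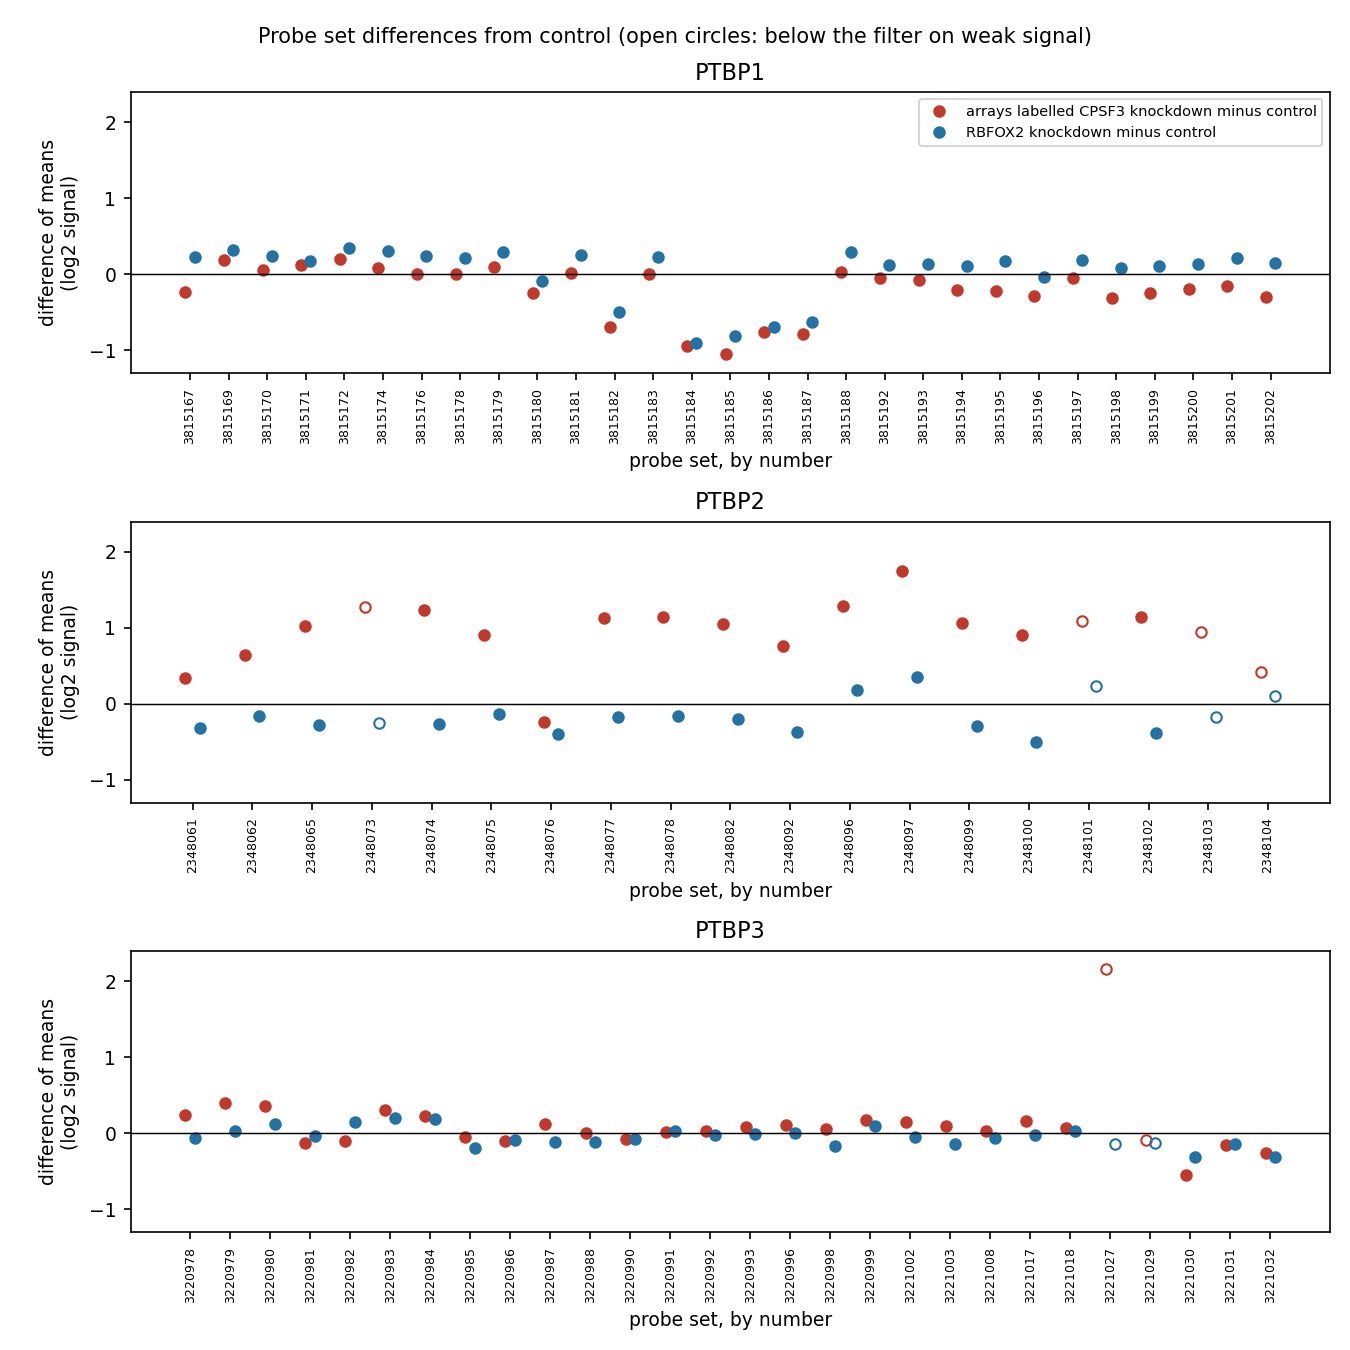
Difference of group means from control (log2 signal, vertical axis) for every PTBP1, PTBP2 and PTBP3 probe set in the order of their numbers; open circles are below the filter on weak signal. In the arrays labelled CPSF3 knockdown the PTBP2 probe sets in use lie between -0.23 and 1.75 with a median of 1.05. Those of PTBP3 in use lie between -0.54 and 0.40, with the weak 3221027 at 2.16. PTBP1 has 5 low probe sets in both targeted groups, each set against the same control arrays.

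At exon level 0 of 257548 signals passed the limma test at an adjusted p of 0.05 in any of the 3 comparisons, so 0% were called, and 0 of the 70 PTBP exon signals. At an unadjusted p under 0.05 there were 32595 (12.7%) in the arrays labelled CPSF3 knockdown and 20306 (7.88%) in the RBFOX2 knockdown arrays, each against control, and 10931 (4.24%) between the targeted groups. Probe set 2348076 of PTBP2 was called under 4 of the 18 other settings when the arrays labelled CPSF3 knockdown were set against control, with differences between -1.18 and -1.44. Probe set 2348061 of PTBP2 was called with array weights (-0.75) and 3815185 of PTBP1 without control replicate 3 (-1.25). In the 4 settings that called 2348076, 678 to 3825 exon signals were called in all. The 3 genes were chosen with earlier results of these arrays known, so nothing is read from the calls of their probe sets. An exon signal subtracts the gene level, so a PTBP2 probe set that stays flat where the gene is higher gets a lower exon signal.

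The genes that work with or under PTBP proteins were examined at gene level, by lists drawn from general knowledge. In the arrays labelled CPSF3 knockdown 14.4% of all 16748 genes differed from control at an adjusted p of 0.05 (limma), 10.0% higher and 4.38% lower, with a median difference of 0.01. Of 15 PTB partners and related RNA-binding proteins 5 rose and 1 fell, with a median of 0.19. SFPQ, a paraspeckle and splicing protein, rose by 0.81 ± 0.14 (adjusted p = 0.00414, limma). It was at 11.68, 11.36 and 11.38 on the arrays labelled CPSF3 knockdown, against 10.76, 10.49 and 10.74 on the control arrays. The hnRNP protein SYNCRIP rose by 0.71 ± 0.11 (adjusted p = 0.00272, limma). HNRNPL, which shares many pyrimidine- and CA-rich targets with PTBP1, fell by 0.42 on the log2 scale (SE 0.13, adjusted p = 0.0401, limma), a call lost in 11 of 18 other settings. Its paralogue HNRNPLL rose by 0.69 ± 0.14 (adjusted p = 0.00739, limma). RAVER2, a co-repressor that binds PTBP1, and CELF2 rose by 0.51 ± 0.13 and 0.49 ± 0.13; both calls failed in some settings, 4 and 7 of 18. The other co-repressors, RAVER1 and MATR3, were at 0.27 ± 0.13 and 0.00 ± 0.15 and did not pass.

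Neural splicing regulators, the company PTBP2 keeps in neurons, gave 2 calls in opposite directions. Of 17 listed 15 had a level, and 1 rose and 1 fell, with a median of -0.09. Over all genes 10.0% rose and 4.38% fell, which is also the background for the markers below. MBNL1, which is widely expressed and shapes the splicing of maturing tissues, rose by 0.56 ± 0.14 (adjusted p = 0.0179, limma), and KHDRBS3 fell by 0.41 on the log2 scale (SE 0.12, adjusted p = 0.0302, limma). Under the 18 other settings the call of MBNL1 failed in 3 and that of KHDRBS3 in 6. SRRM4, the neural activator of microexons, was at 0.02 ± 0.14, and NOVA1 at 0.20 ± 0.14. Markers of neurons were set beside PTBP2, since it is the neural paralogue. Of 12 markers 11 had a level (RBFOX3 had none), 0 of them rose and 2 fell in the arrays labelled CPSF3 knockdown. Their summed level was 92.2 to 93.1 on these arrays, 93.2 to 94.5 on the RBFOX2 knockdown arrays and 94.2 to 95.2 on the control arrays. Of 8 genes known for their expression in HEK293 cells 7 had a level, 0 rose and 1 fell. NEFL, NEFM and INA stand in this list and among the neuron markers. The sum of these 7 was 62.6 to 63.2 on the arrays labelled CPSF3 knockdown. It was 63.5 to 64.4 on the RBFOX2 knockdown arrays and 63.8 to 64.5 on the control arrays. None of the markers of fibroblasts (8 of 8 with a level), blood cells (4 of 7), endothelium (5 of 5) and keratinocytes (5 of 5) was called in any comparison. The endothelium sum was 39.4 to 40.3 on the arrays labelled CPSF3 knockdown, 40.5 to 41.2 on the RBFOX2 knockdown arrays and 40.2 to 40.7 on the control arrays. Sums of the endothelium, fibroblast, blood cell and keratinocyte lists on the arrays labelled CPSF3 knockdown all overlapped control. Only the neuron and HEK293 sums lay wholly below control there. These lists share NEFL, NEFM and INA and are not independent. Whether the lower sums are particular to neurons was not tested.

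Among nonsense-mediated decay factors, the pathway that removes PTBP2 transcripts without the regulated exon, 3 of 11 measured rose and 0 fell, with a median of 0.24. Over all genes 10.0% rose and 4.38% fell, with a median of 0.01. SMG8, a regulator of the kinase SMG1, rose by 0.87 ± 0.19 (adjusted p = 0.00969, limma). It was at 9.46, 9.00 and 8.75 on the arrays labelled CPSF3 knockdown, against 8.19, 7.90 and 8.52 on the control arrays. The decay factor UPF2 and RBM8A of the exon junction complex rose by 0.55 ± 0.13 and 0.47 ± 0.13, calls lost in 2 and 5 of 18 other settings, while UPF1, the central helicase, was at -0.07 ± 0.11. Without CPSF3 replicate 1 the count was 0, and without control replicate 2 it was 1.

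Of 25 genes that carry a known PTB-regulated exon 23 had a level, of which 2 rose and 1 fell in the arrays labelled CPSF3 knockdown, with a median of 0.01. Over all genes 10.0% rose and 4.38% fell, so these counts are near the background. The 2 list members that rose were HNRNPLL, listed above as well, and the scaffold gene DLG1 (0.59 ± 0.13, adjusted p = 0.00898, limma). DLG4, which encodes the postsynaptic scaffold PSD-95 and whose neural exon is repressed by PTBP1 and PTBP2, fell by 0.45 on the log2 scale (SE 0.14, adjusted p = 0.0401, limma), a call lost in 10 of 18 other settings. SRC, whose neural N1 exon is a classic target, was at -0.12 ± 0.11, and PKM at -0.26 ± 0.11. Of 625 exon signals in these genes 0 passed the test by limma. At an unadjusted p under 0.05 there were 85 (13.6%), where 12.7% of all exon signals were. For the RBFOX2 hairpin 71 of the 625 (11.4%) were under that p, where 7.88% of all were, and between the targeted groups 19 (3.04%), where 4.24% of all were. Without control replicate 3, 16 of the 625 passed against control in the arrays labelled CPSF3 knockdown and 6 in the RBFOX2 knockdown arrays, or 2.56% and 0.96%, where 1.49% and 0.32% of all exon signals passed.

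With the RBFOX2 hairpin 0.173% of all genes differed from control (0.0299% higher and 0.143% lower), and 0 members of the 4 lists did (limma). At an unadjusted p under 0.05 there were 4, 3, 0 and 5 of 15, 15, 11 and 23 in the order given above, where 13.6% of all genes were. The smallest p per list belonged to HNRNPLL (0.48 ± 0.14, adjusted p = 0.164) in the first and last list, to ELAVL2 (-0.35 ± 0.10, adjusted p = 0.165) and to SMG8 (0.37 ± 0.19, adjusted p = 0.423), all by limma. Between the targeted groups 0.400% of genes (0.137% higher and 0.263% lower) and 0 list members differed (limma), with 7, 1, 6 and 3 at an unadjusted p under 0.05, where 13.3% of all genes were. The smallest p of each list belonged to RAVER2 (0.54 ± 0.13, adjusted p = 0.104), MBNL1 (0.63 ± 0.14, adjusted p = 0.0829), MAGOH (0.38 ± 0.13, adjusted p = 0.216) and FLNA (-0.48 ± 0.11, adjusted p = 0.101), all by limma.

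**Figure D5:**
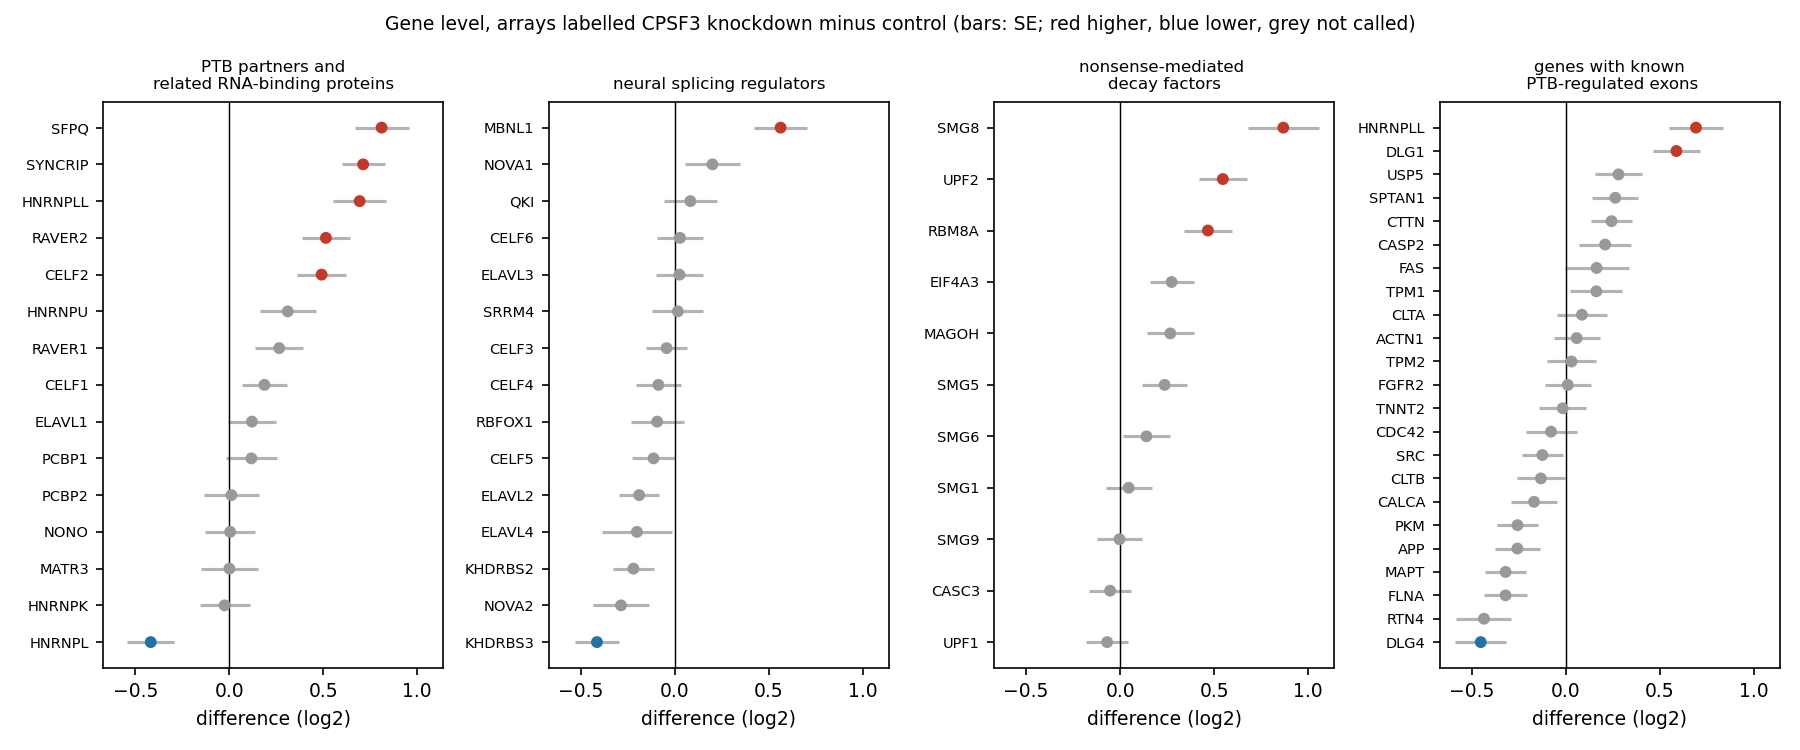
Difference in gene level between the arrays labelled CPSF3 knockdown and control (log2, horizontal axis) for the measured members of 4 lists, with SE bars; red and blue mark genes called higher or lower over all genes. SFPQ at 0.81 and SMG8 at 0.87 lead their lists, and most members lie near 0.

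The genes most like PTBP2 were sought by Pearson correlation of gene levels over the 9 arrays. These arrays fall into groups, so the coefficients largely describe the step between the arrays labelled CPSF3 knockdown and the rest. The 5 highest were NPLOC4, an adaptor of the segregase p97 (r = 0.986), the acidic nuclear protein ANP32A (r = 0.971), the deubiquitinase USP37 (r = 0.962), SIP1 (r = 0.953) and the RNA helicase DDX21 (r = 0.953). SIP1 is the symbol on the platform and is shared by several genes. NPLOC4 was at 10.76, 10.85 and 10.91 on the arrays labelled CPSF3 knockdown, 10.32, 10.27 and 10.40 with the RBFOX2 hairpin, and 10.42, 10.40 and 10.44 on the control arrays. Its step was smaller than that of PTBP2, at 0.42 against control. USP37 had the widest step of the 5, at 0.87, while ANP32A, DDX21 and SIP1 were at 0.40, 0.36 and 0.29. The same 5 differed from control by -0.15 to -0.01 in the RBFOX2 knockdown arrays. The genes most like PTBP1 were KCNJ5-AS1 (r = 0.946), FAM89A (r = 0.944) and RBMS3 (r = 0.929), and those most like PTBP3 were CCNI (r = 0.943), GTF2F2 (r = 0.938) and RAD52 (r = 0.934). KCNJ5-AS1 is an antisense RNA by its symbol.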

How the data were processed

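Total RNA of 9 samples was amplified to cRNA, turned into labelled single-stranded cDNA and put on 9 arrays, per the labels' protocols. The authors deposited 1 log2 probe set signal per array. Per the submitters' processing notes, Affymetrix Power Tools, RMA and the build hg18 were used; no versions are named there. The series' design text names Affymetrix' Exon Array Computational Tool. RMA brings arrays to a common distribution and compresses weak signals.

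Symbols came from the platform annotation (354600 probe sets with 1 symbol), of which 16426 were current in RefSeq for GRCh38.p14, 2950 updated through a synonym and 121 kept. No coordinates are printed because builds differ, and probe sequences were not used here, so binding between paralogues was not checked. Gene levels needed at least 3 probe sets in use and exon signals at least 5. Levels and exon signals were fitted in R 4.3.3 with limma 3.58.1 (lmFit, eBayes, 3 groups, 2-sided, Benjamini-Hochberg at 0.05 over all features) and tested on simulated data; data.table was version 1.17.8. With 3 arrays in each group the smallest p of an exact permutation is 0.1. The number of arrays limits precision.

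Members and lists were chosen with earlier results of these data known. Named genes are the members, the targets, per list and comparison up to 2 highest and 2 lowest called (or the smallest p), and the most correlated genes; genes named beyond that, CELF2, RAVER1, RAVER2, MATR3, SRRM4, NOVA1, UPF1, RBM8A, SRC and PKM, were added after their values were seen. Same-numbered replicates share a number in the titles and were not paired in the main fits.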

Additional observations from a re-analysis of the deposited data

How the results depend on the processing

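Alternatives were no filter, a filter at the upper quartile, repeated quantile normalisation, centring, the mean as gene level, each array left out, the replicate block, fits of 2 groups alone, array weights, and a variance trend with robust fitting. PTBP2 kept its direction in every one of its 15 alternatives in all 3 comparisons. With the mean as gene level it was 0.94 in the arrays labelled CPSF3 knockdown against control (the first comparison), 1.15 against the RBFOX2 knockdown arrays (the third comparison), and PTBP1 was 0.0312 in the RBFOX2 knockdown arrays against control (the second comparison). PTBP3 changed sign in single settings, within its spread. Genes called in the first comparison numbered 2409, and 4817 with array weights. In the second comparison they numbered 29, against 7 with no filter, 19 after centring, 44 with the mean, 137 with the replicate block, 5 with 2 groups alone and 1513 with array weights. In the third they numbered 67, against 18 with no filter, 140 with the mean, 42 with the replicate block, 149 with 2 groups alone and 601 with array weights. Deviations from the group mean correlated from -0.14 to 0.33 between same-numbered arrays and from -0.45 to 0.35 between the others. With 3 arrays a group this cannot decide whether the numbers pair the arrays. Exon signals called in the first comparison numbered 2 at the upper quartile, 678 with the mean, 1936 with array weights and 773 with the variance trend, and 1 in the second comparison with the mean. Of PTB partners, 3 were called in the first comparison with no filter and 3 at the upper quartile, and 4 in the third with array weights. Of neural regulators, 1 was called in the first comparison with no filter, at the upper quartile, with the mean or with 2 groups alone; 1 in the second at the upper quartile and 2 with array weights; and 1 in the third with array weights. Of genes with PTB-regulated exons, 8 were called in the first comparison with the mean and 9 with array weights, 3 in the second and 1 in the third with array weights. Of their exon signals 2, 8 and 1 were called in the first comparison with the mean, array weights and the variance trend. Leaving out single arrays gave 965 (without CPSF3 replicate 1) to 3429 (without control replicate 3) genes in the first comparison, 2 to 1546 (without control replicate 3) in the second and 14 to 145 in the third. Exon signals ran from 0 to 3825 and from 0 to 823 against control, both highest without control replicate 3. List counts ran from 3 to 6 for PTB partners, 1 to 2 for neural regulators, 0 to 3 for decay factors and 2 to 4 for genes with PTB-regulated exons in the first comparison, and from 0 to 1, 0 to 1, 0 to 0 and 0 to 3 in the second. Exon signals of the last list ran from 0 to 16 and 0 to 6. PTBP exon signals called ran from 0 to 2 over the left-out arrays, the 2 being 2348076 and 3815185 without control replicate 3. Nothing is read from these calls, since the genes were chosen with earlier results known. Added after the data were seen, leaving out control replicate 3 gave 14 and 19 non-overlapping PTBP1 probe sets against control in the arrays labelled CPSF3 knockdown and in the RBFOX2 knockdown arrays, 15 and 4 for PTBP2 and 12 and 4 for PTBP3, against 7, 2, 14, 2, 7 and 2 with all arrays; fewer arrays overlap less often by construction. Other causes were not tested.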
